A study of Mus musculus with 12 samples.

Results

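The block between 35 and 40 Mb of chromosome 17 holds the part of the mouse major histocompatibility complex (MHC) with the D, Q, T and M class I genes, followed by receptor genes and by genes for secreted peptides of the Esp family. Within it, 307 of the 50654 regions in the authors' deposited table of H3K9me3 differences were taken. They are the regions on chromosome 17 that start between positions 35000001 and 40000000 of mm10, without the rows whose gene symbol begins with Olfr, Vmn or Zfp. The block was chosen by its H3K9me3 values, because many of its regions carried more of the mark in the knockout, so the H3K9me3 differences between genotypes are given as a description, with no test of them.

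The libraries were native ChIP-seq of neural progenitors grown as neurospheres from the ganglionic eminence of C57BL/6 mouse embryos at E15.5. The knockout (KO) animals are labelled Nestin-KO, in a study of the methyltransferase gene Setdb1, and the wild-type (WT) animals are labelled WT. Nestin is a gene of neural progenitors, and the labels do not describe the alleles or the driver further, so cells that escaped the loss cannot be told apart here. Each genotype had 3 animals for H3K9me3 and another 3 for H3K27ac, with 100000 nuclei per library. The H3K9me3 libraries of KO came from males (3 of 3) and those of WT mostly from females (2 of 3), and for that mark sex and genotype cannot be told apart fully. The first number of the H3K9me3 titles, whose meaning is not stated, goes largely with genotype too, and its part in the differences was not tested. For H3K27ac each genotype had 1 female and 2 males.

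H3K9me3 is a histone mark of silenced chromatin, and SETDB1 is one of the enzymes that place it. H3K27ac marks active promoters and enhancers. MHC class I molecules show peptides from inside the cell to T cells and natural killer cells. The classical D gene is expressed widely, whereas the nonclassical Q, T and M genes are more restricted, and several M genes, among them H2-M1, H2-M9 and H2-M11, are known from sensory neurons of the vomeronasal organ. Esp genes encode exocrine gland peptides that act as pheromones on the same organ.

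The promoter sequences below show both ends of the class I and Esp genes in the block. H2-Q6 and H2-Q7 start inside regions with less H3K9me3 in KO, and H2-M2 and Esp18 start inside regions with more. Each sequence is the 250 bases before the gene's start, from RefSeq (GRCm38.p6), written 5′ to 3′ on the gene's strand with CpG dinucleotides in capitals. H2-Q6 lies at chr17:35424600-35424849 and H2-Q7 at chr17:35438905-35439154, both on the plus strand. H2-M2 lies at chr17:37483555-37483804 on the minus strand and Esp18 at chr17:39406109-39406358 on the plus strand.
H2-Q6: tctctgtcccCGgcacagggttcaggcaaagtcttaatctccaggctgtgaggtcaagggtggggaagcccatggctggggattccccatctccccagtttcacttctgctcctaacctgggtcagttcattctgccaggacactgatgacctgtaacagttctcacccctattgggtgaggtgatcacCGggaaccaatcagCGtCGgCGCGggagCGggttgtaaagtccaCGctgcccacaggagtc
H2-Q7: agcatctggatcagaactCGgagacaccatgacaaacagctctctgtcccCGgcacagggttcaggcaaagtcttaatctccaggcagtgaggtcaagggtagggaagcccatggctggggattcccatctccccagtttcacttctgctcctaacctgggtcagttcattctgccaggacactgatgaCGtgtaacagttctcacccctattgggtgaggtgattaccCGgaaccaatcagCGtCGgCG
H2-M2: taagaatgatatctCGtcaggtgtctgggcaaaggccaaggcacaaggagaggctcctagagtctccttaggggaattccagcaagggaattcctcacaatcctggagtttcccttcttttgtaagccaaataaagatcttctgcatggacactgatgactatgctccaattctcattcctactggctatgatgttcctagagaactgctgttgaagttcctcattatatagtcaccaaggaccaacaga
Esp18: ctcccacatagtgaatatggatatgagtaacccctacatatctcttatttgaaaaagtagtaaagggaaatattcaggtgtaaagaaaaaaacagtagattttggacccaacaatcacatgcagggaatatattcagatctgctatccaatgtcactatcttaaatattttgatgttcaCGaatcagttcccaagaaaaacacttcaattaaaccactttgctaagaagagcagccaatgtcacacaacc

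The H2-Q6 promoter held 8 CpGs and the H2-Q7 promoter 7, against a median of 6 over 32851 RefSeq promoters of mouse cut the same way. H2-M2 and Esp18 held 1 each, and 7.87% of all promoters held fewer. By family, the 10 promoters of D, Q and T genes held a median of 6.5 CpGs (range 2 to 14), the 13 promoters of M genes a median of 2 (range 0 to 5), and the 8 Esp promoters a median of 1. Among promoters that a listed region reached, Gm32252 held 3, H2-Q6 8 and H2-Q7 7 at lower regions, and H2-M2 and Esp18 1 each at higher ones. The H2-Q2 promoter held 2 CpGs and that of H2-D1 14, the most of the class. The H2-Q2 region was lower and the H2-L region at H2-D1 higher, but neither covers the promoter counted. Whether CpG number goes with the direction of H3K9me3 was not tested. The genes between the class I clusters differed again, with a median of 16.5 CpGs over 38 framework promoters and of 9 over 29 class III promoters.

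Short motifs were searched on both strands. CCAAT is a common promoter box, and TATAAA is the TATA box. The NF-kB-type motif GGGGATTCCC, known from the enhancer of classical class I genes, was added after the sequences had been read. It was taken from the H2-Q6 promoter itself, so its match there was fixed in advance. H2-Q6, H2-Q7 and Esp18 held 2 CCAAT matches each and H2-M2 held 1, and 33.9% of all promoters held at least 1. GGGGATTCCC stood in 1 copy in H2-Q6 and in H2-Q7, in 3 of the 10 D, Q and T promoters and in none of the 13 M promoters, against 0.0852% of all promoters. Since these matches include the source sequence and H2-Q7, nearly identical to it, nothing is read from that contrast. None of the 4 printed sequences held TATAAA, which 12.4% of all promoters did, but 13 of the 23 class I promoters (56.5%), 69.2% of those of M genes, 40% of those of D, Q and T genes and 37.5% of those of Esp genes held it. The matches did not overlap one another. H2-Q6 and H2-Q7 were identical at 205 of 211 aligned bases (97.2%), so short reads from either gene can map to the other, and the labels do not say how such reads were counted.

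In the authors' table, 244 of the 307 regions were higher in KO and 63 were lower, each at an adjusted p of 0.05 or less. Over all 50654 regions, 28.9% were called higher and 71.1% lower. Since the block was chosen for this excess, nothing is read from it. The authors' p-values do not use the spread between animals, so the values of the single libraries carry the rest of the description. At 177 regions all 3 KO values lay above all 3 WT values, which was so at 20.2% of all regions. At 42 regions all 3 KO values lay below all 3 WT values, which was so at 54.2% of all regions.

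The median log2 fold change, KO over WT, was 0.82 over the higher regions (range 0.50 to 1.76) and -0.86 over the lower ones (range -2.06 to -0.51). Over the whole table it was 0.81 for the higher regions, -1.17 for the lower ones and -0.94 for all of them together. The regions were short, with a median length of 1300 bp (range 1000 to 7600). Per kb of length, the median level was 42.1 normalised reads in KO and 23.7 in WT over the higher regions. Over the lower regions it was 24.6 normalised reads per kb in KO and 47.0 in WT. The WT level of the higher regions was thus close to the KO level of the lower ones. The authors' enrichment ratio gave the same picture, with medians of 1.92 in KO and 0.90 in WT over the higher regions and of 1.04 in KO and 1.68 in WT over the lower ones. In WT, 61.1% of the higher regions had an enrichment below 1, which was so for 59.8% of all higher regions of the table.

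Which listed value belongs to which animal is not stated, so the values are named by their order in the cell as the first, the second and the third. Over the higher regions the medians were 56.0, 46.2 and 58.8 normalised reads in KO, against 30.1, 30.4 and 31.2 in WT. All 3 KO medians stood above the 3 WT medians, which were nearly alike. Over the lower regions the medians were 25.5, 31.8 and 43.7 normalised reads in KO, against 60.3, 73.0 and 62.4 in WT. There the KO libraries differed among themselves, with the first value the lowest of the 3 KO values at 42 of the 63 regions and the third value the highest at 45. The whole table had the same order, so it is not particular to the block. Of its 36032 lower regions, the first KO value was the lowest at 24487 and the third the highest at 29517.

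**Figure D1:**
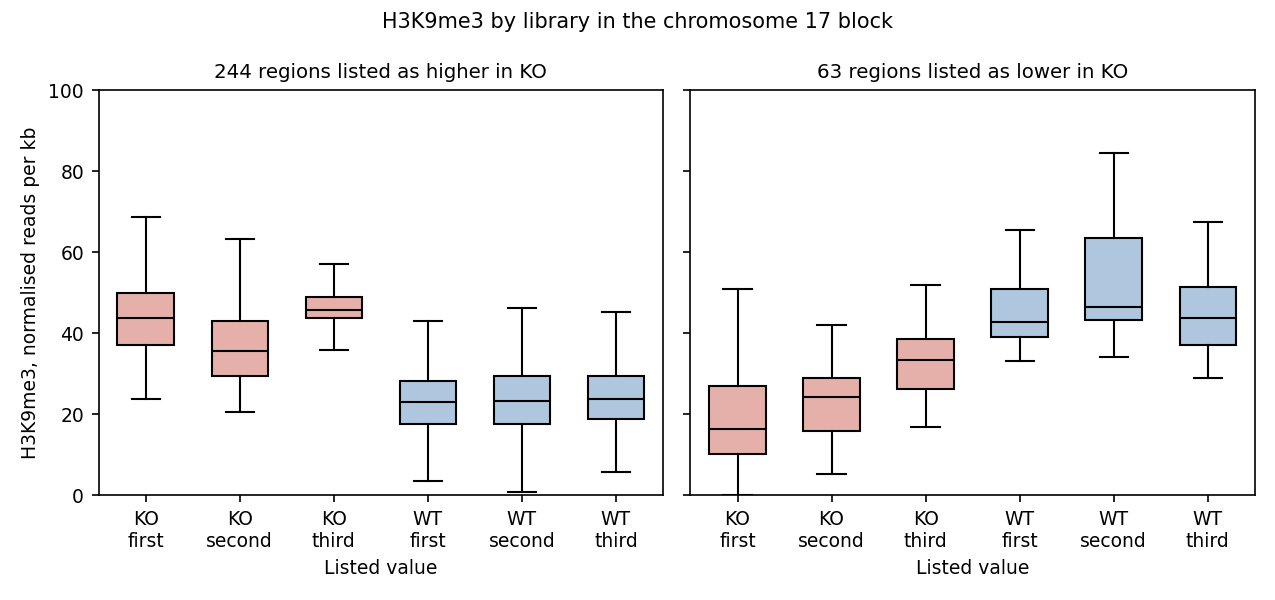
H3K9me3 level per kb (normalised reads per kb, linear axis from 0) in each listed KO value and, right of them, each listed WT value, for the 244 regions listed as higher in KO (left panel) and the 63 listed as lower (right panel). Boxes span the quartiles with the median as a line, whiskers reach 1.5 times the box height at most, and points beyond them are not drawn. In the left panel all KO medians lie above all WT medians, and in the right panel all lie below, with the third KO value closest to WT. Under median-ratio scaling, which takes most regions as unchanged, 23 of the lower regions turned to higher.

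Precision differed between libraries. A single read was worth 2.55, 0.436 and 0.840 normalised reads in the KO libraries and 1.77, 0.820 and 0.725 in the WT libraries. A median region of the block held 20, 101 and 68 reads in KO and 20, 43 and 48 in WT, and the first value of each genotype is therefore the least precise. The counts of calls that follow use the values that chose the block, so they describe it and test nothing about it. limma on log2(value + 1), fitted over the whole table, called 10 regions of the block higher and 7 lower at an adjusted p of 0.05 or less, against 1.24% and 14.9% of all regions. With the libraries rescaled by the median ratio over all listed regions, which raises the log2 fold change by a median of 0.79 over the table, it called 242 higher (27.7% of all regions) and 2 lower (5.97%). This scaling takes most regions as unchanged. The table holds only regions selected as different, 71.1% of them called lower, so the scaling can take away part of a shared loss. Which scale is the better one was not tested. On that scale the medians were 1.68 over the higher regions of the block and -0.11 over its lower ones. Over the whole table they were 1.67 for the higher regions, -0.45 for the lower ones and -0.17 for all of them together. In the block, 23 of the 63 lower regions changed sign. With limma-voom on reads recovered from the value steps, 142 were called higher (14.1% of all regions) and 44 lower (58%). Without the third KO value, limma on the deposited scale called 55 higher and 44 lower, against 2986 and 30932 of the whole table. Without any one of the other 5 values it called 0 in the block, with 67 to 83 higher and 12 to 25 lower at an unadjusted p of 0.05 or less. At that unadjusted p the whole table of 50654 regions had 3656 to 4820 higher and 12340 to 20756 lower in the same fits. In these 5 fits the whole table had no call at an adjusted p of 0.05 or less either, apart from 10 higher without the third WT value, so the zeros are not particular to the block.

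The directions were not mixed evenly along the block. The first region is the H2-L one at 35265201, with a log2 fold change of 0.88. The 39 regions that follow it, up to position 36454701, were all lower, and of the 267 regions from there to the end of the block 243 were higher and 24 were lower. The region at 36454701 had the highest log2 fold change of the block, 1.76, with 40.8, 27.03 and 64.7 normalised reads in KO against 7.09, 13.1 and 18.9 in WT. The groups did not overlap there. This border was placed after the values had been seen.

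In steps of 0.5 Mb, the counts of higher and lower regions were 1 and 17, then 0 and 5, then 5 and 17, and from the fourth step on 20 and 2, 21 and 2, 32 and 2, 38 and 5, 59 and 7, 43 and 3, and 25 and 3. The stretches beside the block were counted like it, without rows of Olfr, Vmn and Zfp symbols. The stretch before the block went with its first part, since all 99 such regions of chromosome 17 between 30 and 35 Mb were lower. The stretch after it went with its second part, since 116 of 148 regions between 40 and 45 Mb (78.4%) were higher. Just outside the block, the last region before it, at 34788701, had a log2 fold change of -1.97, and the first after it, at 40125701, one of -0.77. Just inside, the last region, at 39997301, had one of -1. On the rest of chromosome 17, with the rows of those symbols kept, 34.7% of 2206 regions were higher.

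**Figure D2:**
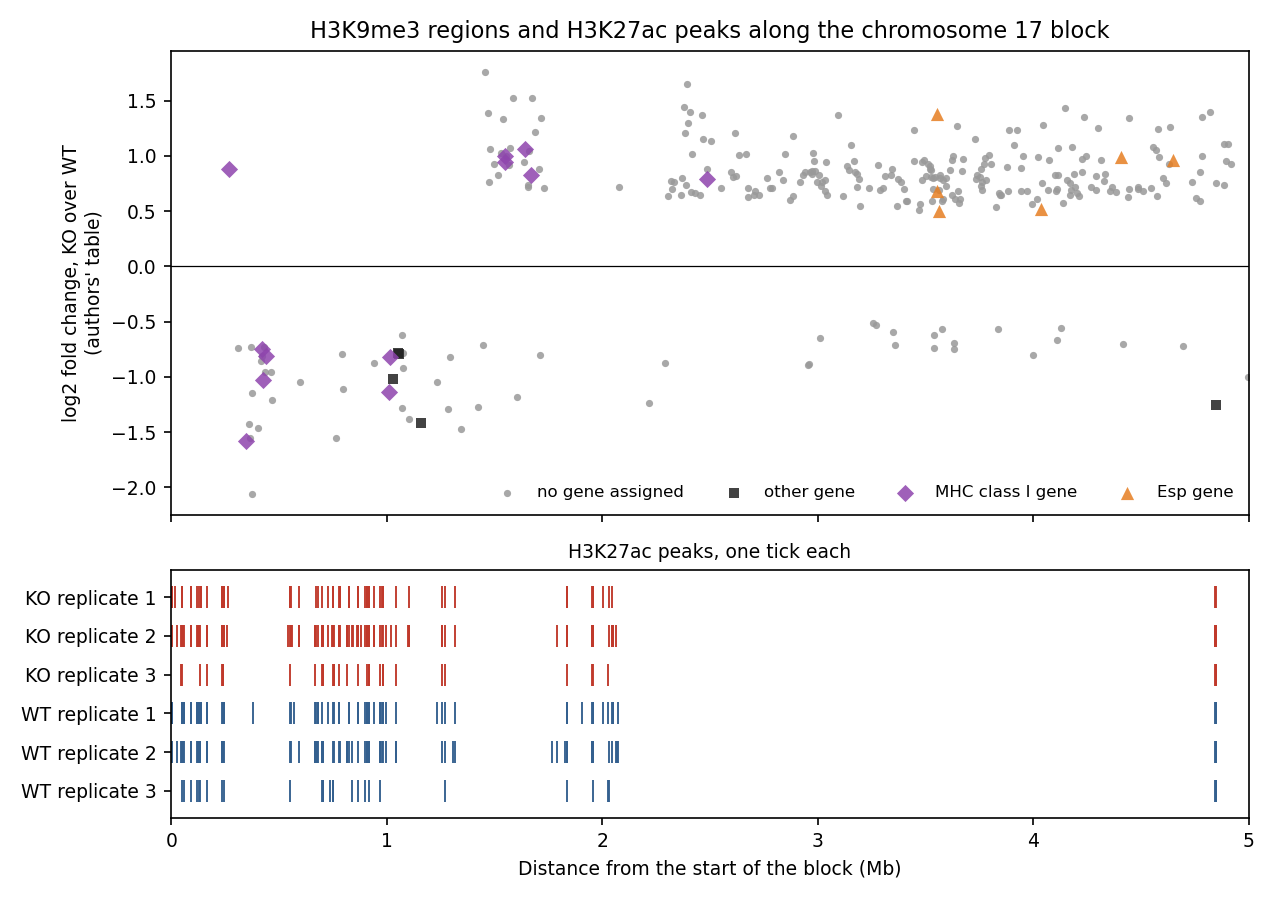
Upper panel, log2 fold change of H3K9me3 (KO over WT, authors' table) of the 307 regions against distance from the start of the block in Mb, with MHC class I, Esp and other genes marked. Lower panel, H3K27ac peaks as 1 tick each for the 3 KO libraries and, under them, the 3 WT libraries. The lower regions crowd into the first part together with most H3K27ac peaks, and from shortly after 2 Mb on no library has a peak until the Rn45s locus near its end. Under median-ratio scaling, which takes most regions as unchanged, 23 of the 63 lower regions turned to higher.

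Of the 307 regions, 284 had no gene assigned. The other 23 were assigned to gene bodies (9 regions), to the outer promoter class of the authors (7), to their 1 kb promoter class (4) and to their proximal promoter class (3). All 25 olfactory receptor rows that the selection left out were higher. Among the regions with no gene, the longest higher one, at 38580801 to 38586000, held 234, 276 and 274 normalised reads in KO against 95.7, 157 and 204 in WT. The KO values all stood above the WT values. Among the 24 lower regions inside the second part, the longest with no gene, at 37954601 to 37958500, held 66.2, 103 and 113 normalised reads in KO against 161, 201 and 161 in WT. At 17 of these 24 regions the KO values all lay below the WT values, as they did at 27479 of the 36032 lower regions of the whole table. Nothing particular to these 24 is read from that count.

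Of the 6 regions with the largest gain, those at 36454701, 36585101 and 36674401 lie around the stretch of H2-M11, H2-M9 and H2-M1 (before it, inside it and just after it), those at 37379501 and 37392601 lie before H2-M2, and the last lies at 39145601. The region at 36674401 held 79.0, 47.1 and 77.3 normalised reads in KO against 24.8, 23.0 and 23.2 in WT, with no overlap. At 39145601 the KO values of 129.9, 36.6 and 68.1 spread widely and overlapped the WT values of 39.0, 21.3 and 26.8. The largest loss was at 35375401, between H2-Q3 and H2-Q4, with 15.3, 9.59 and 37.0 normalised reads in KO against 65.6, 77.1 and 115.3 in WT, a log2 fold change of -2.06.

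Of the class I genes, 12 regions over 9 gene symbols were listed, 6 higher and 6 lower, with a median log2 fold change of 0.02 against -0.94 over the whole table. RefSeq places 31 class I genes or pseudogenes in the block. The split followed position. All 6 lower class I regions were at Q and T genes, 5 of the 6 higher ones at M genes, and the sixth was the H2-L region. Under median-ratio scaling the class I median turned to 0.81, and the lower regions came close to 0. There H2-Q2 had a log2 fold change of -0.87, and the other 5 lower regions lay between -0.34 and -0.03, with their sign kept. The 6 higher regions lay between 1.66 and 2.00 on that scale. In 3 places the authors' symbols differ from RefSeq, which has H2-D1 at the H2-L region, H2-Q6 at the second H2-Q8 region and H2-Q7 at the H2-Q9 region. The first H2-Q8 region lies at Gm32252 in RefSeq.

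H2-Q2, a Q-region class I gene, had the lowest log2 fold change of the class, -1.58, at 35344001. It held 5.09, 20.9 and 25.2 normalised reads in KO against 51.4, 55.8 and 45.7 in WT, and the groups did not overlap. The region over the start of H2-Q6, printed above and labelled H2-Q8, held 20.4, 17.9 and 28.6 normalised reads in KO against 49.6, 45.1 and 42.1 in WT. The groups did not overlap there either, at a log2 fold change of -1.03. The region at the start of H2-Q7, labelled H2-Q9, held 58.6, 58.9 and 118.5 normalised reads in KO against 125.9, 158.3 and 128.3 in WT, a log2 fold change of -0.81. The third KO value came within a few reads of the lowest WT value. At the other H2-Q8 region the third KO value, 167, lay inside the WT values of 135, 191 and 132, while the first and second KO values were 25.5 and 80.2.

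H2-T24, a T-region gene, had the largest class I region, 4000 bp in its gene body, with 61.1, 78.5 and 103 normalised reads in KO against 193, 170 and 172 in WT. The mean level there came to 80.7 ± 20.8 in KO and 178 ± 13.0 in WT (SD, n = 3 each), with no overlap. The second H2-T24 region had 22.9, 33.1 and 47.9 normalised reads in KO against 46.1, 88.6 and 49.3 in WT, and there the groups overlapped. Next to it, the uncharacterised A930015D03Rik, Gm6034 with 2 regions and 2410017I17Rik were lower as well. Their log2 fold changes were -1.02, -0.78, -0.79 and -1.42. In each of these 4 regions the KO values all lay below the WT values, and with median-ratio scaling the longer Gm6034 region turned to 0.07.

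In the M cluster, the H2-M9 region held 109.5, 73.3 and 107 normalised reads in KO against 47.9, 46.8 and 44.2 in WT, a log2 fold change of 1.06. Its WT values were almost identical and all KO values stood above them. H2-M11 had 2 higher regions. The one at its start held 96.8, 40.1 and 50.4 normalised reads in KO against 46.1, 28.7 and 18.9 in WT, where the second KO value lay below the first WT value. The one at 36549701, described after its values were seen, held 58.6, 33.6 and 48.8 in KO against 26.6, 21.3 and 25.4 in WT, with no overlap. The H2-M2 region, which covers the printed promoter, held 76.4, 79.8 and 80.7 normalised reads in KO against 53.2, 32.8 and 50.8 in WT, a mean of 79.0 ± 2.25 in KO and 45.6 ± 11.1 in WT (SD, n = 3 each). H2-M1 and H2-L, also described after their values were seen, had log2 fold changes of 0.83 and 0.88, and their KO and WT values overlapped.

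All 6 regions at Esp genes were higher, with a median log2 fold change of 0.82. They lie in the second part of the block, where 243 of 267 regions were higher and the median was 0.80, so they are near that share. All 11 Esp regions of the whole table were higher, where 28.9% of all regions were called higher. In the block they belonged to Esp34, Esp24, Esp18 and Esp15. The Esp34 region at 38554101 held 33.1, 42.7 and 45.4 normalised reads in KO against 7.09, 14.8 and 24.7 in WT, a log2 fold change of 1.38. The groups did not overlap. The other Esp34 regions had log2 fold changes of 0.68 and 0.50 with overlapping values. Esp18, over the promoter printed above, held 45.9, 27.03 and 47.1 normalised reads in KO against 30.1, 12.3 and 18.1 in WT, and the second KO value lay below the first WT value. Esp15 held 45.9, 44.0 and 56.3 in KO against 30.1, 19.7 and 25.4 in WT, with no overlap. Esp24 had the smaller change of 0.52, with overlapping values. Under median-ratio scaling the 6 Esp regions lay between 1.31 and 2.21.

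**Figure D3:**
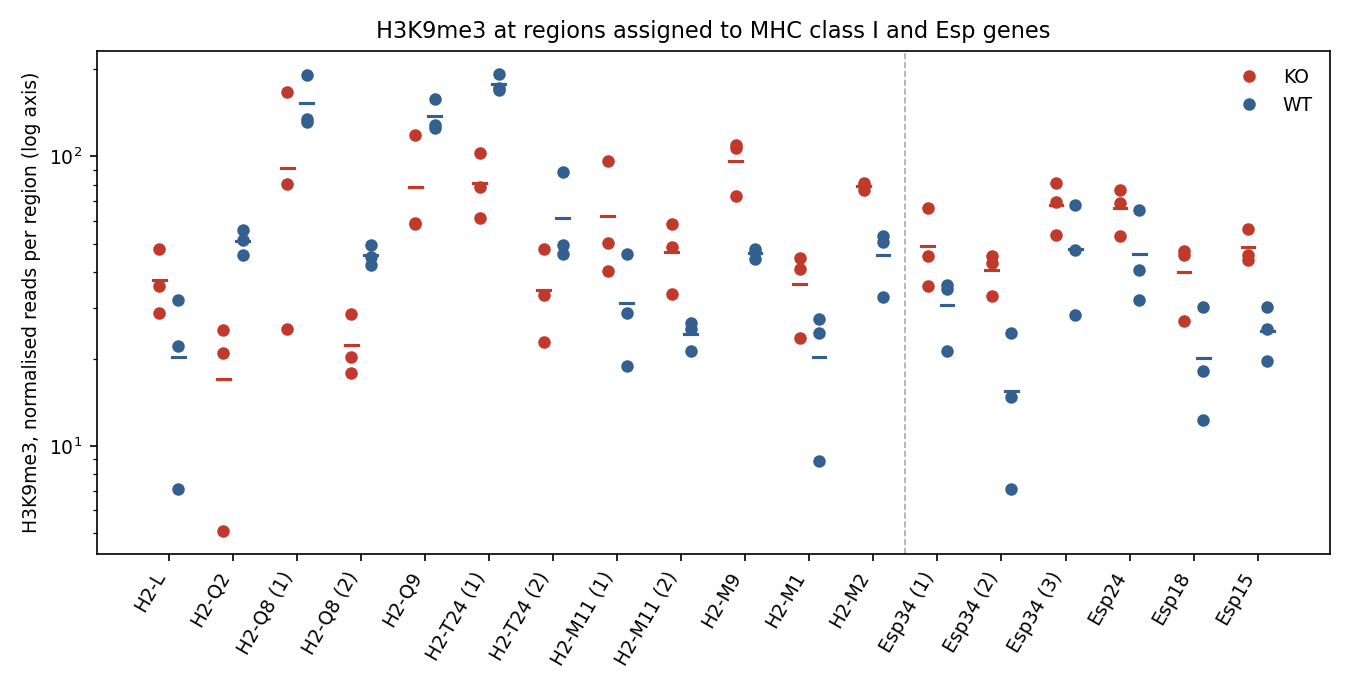
Normalised H3K9me3 reads per region (log axis) in the 3 KO values and, right of them, the 3 WT values, for the 12 regions at MHC class I genes and the 6 at Esp genes, in order along the chromosome, with a bar at each group mean. The KO means lie below the WT means from H2-Q2 to H2-T24 and above them at H2-L and from H2-M11 to Esp15; under median-ratio scaling no region changes sign, but 5 of the 6 lower class I regions come to between -0.34 and -0.03 on the log2 scale.

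The class III genes of the block, which include Tnf, Lta and Bag6, had no listed region among the 27 placed there by RefSeq. The framework genes between the class I clusters, such as Pou5f1, Ddr1 and Gabbr1, and the 6 Trim genes, which encode ubiquitin ligases, had none either. Of 37 names of the antigen presentation machinery and class I-like genes elsewhere in the genome, 4 had listed regions, 7 in all, and each was lower, with a median log2 fold change of -1.44. They were Raet1c with 4 regions, Raet1d, H2-DMb1 and H2-Ob. Raet1c and Raet1d encode stress ligands of the NKG2D receptor on chromosome 10. H2-Ob encodes a chain of the class II regulator H2-O, and its region held 10.2, 20.5 and 48.8 normalised reads in KO against 78.0, 116 and 107 in WT. The groups did not overlap.

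Rn45s, a copy of the ribosomal RNA precursor at 39842101 to 39849700, stood apart by level. It held 13463, 26687 and 21441 normalised reads in KO against 34541, 33590 and 78336 in WT, a log2 fold change of -1.25. The KO values all lay below the WT values. Since ribosomal DNA has many copies, reads from all of them can pile up on this one. It was also the only region of the block under an H3K27ac peak in all 6 libraries.

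H3K27ac is the one readout here that the choice of the block did not use. Depth of these libraries is unknown, and peak lists were called per library, so counts are set against list length. The 3 KO lists held 62, 93 and 35 peaks in the block out of 26344, 42651 and 11446, and the 3 WT lists held 74, 78 and 30 out of 31912, 37289 and 12446. Set per 1000 peaks, the values were 2.35, 2.18 and 3.06 in KO and 2.32, 2.09 and 2.41 in WT, a mean of 2.53 ± 0.465 in KO and 2.27 ± 0.164 in WT (SD, n = 3 each). The values overlapped and the difference of 0.257 did not pass an exact permutation test (two-sided p = 0.5, Benjamini-Hochberg adjusted p over 3 tests = 1, smallest possible p = 0.1). After merging, the block had 118 distinct H3K27ac regions. Of these 12 were found in all 6 libraries, 40 in a single library, and none in all 3 libraries of one genotype and no library of the other.

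Few H3K9me3 regions touched an H3K27ac peak, in the block as over the whole table. None of the 244 higher regions touched a peak in any library. Of the 63 lower regions, 4 did (6.35%), namely Rn45s in all 6 libraries and 3 intergenic regions in 1 library each. Over the regions of the table on assembled chromosomes, 0.838% of 14317 higher and 3.02% of 35906 lower regions touched a peak. The number of regions touched was 1, 3 and 1 in KO and 2, 1 and 1 in WT (exact permutation test, two-sided p = 1, adjusted p = 1). With so few overlaps no difference between genotypes was detectable.

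The peaks were unevenly placed along the block as well. From 37072448 to 39843096, a span of 2.77 Mb, no library had a peak, and 17 of 61520 stretches between merged autosomal peaks were as long. This span held 232 of the 307 regions, namely 212 of the 244 higher ones (86.9%) and 20 of the 63 lower ones (31.7%). It holds H2-M2, H2-M3 and the Esp genes except Esp38. In windows of 0.5 Mb, 172 of 189 regions of the block (91.0%) were higher in windows with no peak and 72 of 118 (61.0%) in windows with a peak. On the autosomes outside the block, also without Olfr, Vmn and Zfp rows, the shares were 73.4% of 11211 regions without a peak and 14.5% of 35518 with one. The span and the windows were set after the values had been seen.

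At the gene lists, 30, 38 and 24 of 102 genes of the block had a peak in the gene or within 1 kb in the KO libraries, and 32, 35 and 20 in the WT libraries. The mean number of genes came to 30.7 ± 7.02 in KO and 29.0 ± 7.94 in WT (SD, n = 3 each), a difference of 1.67 genes that did not pass (exact permutation test, two-sided p = 0.8, adjusted p = 1). The lists differed in level instead. Of 27 class III genes, 6 had a peak in all 6 libraries, among them Bag6, a chaperone, and Ddx39b, an RNA helicase of mRNA export. Of 29 framework genes, 6 did, among them Ddr1, a collagen receptor, and Ppp1r10, a regulator of protein phosphatase 1. Trim26 and Trim39 did so too.

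Most class I and Esp genes had no called H3K27ac peak. A missing peak does not show that the mark is absent. In the shorter lists of KO replicate 3 and WT replicate 3 even the progenitor markers Sox2 and Hes1 had none. Reads shared by near-identical class I genes may also have gone uncounted, which was not tested. Of the 31 class I genes 27 had no peak in any library and none had one in all 6. H2-T22, a ligand of gamma delta T cells, had a peak in 3 KO and 2 WT libraries. H2-D1 had one in KO replicate 1 alone, H2-T24 in KO replicate 2 alone, and H2-Q4 in WT replicate 1 alone. None of the 9 Esp genes had a peak in any library.

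**Figure D4:**
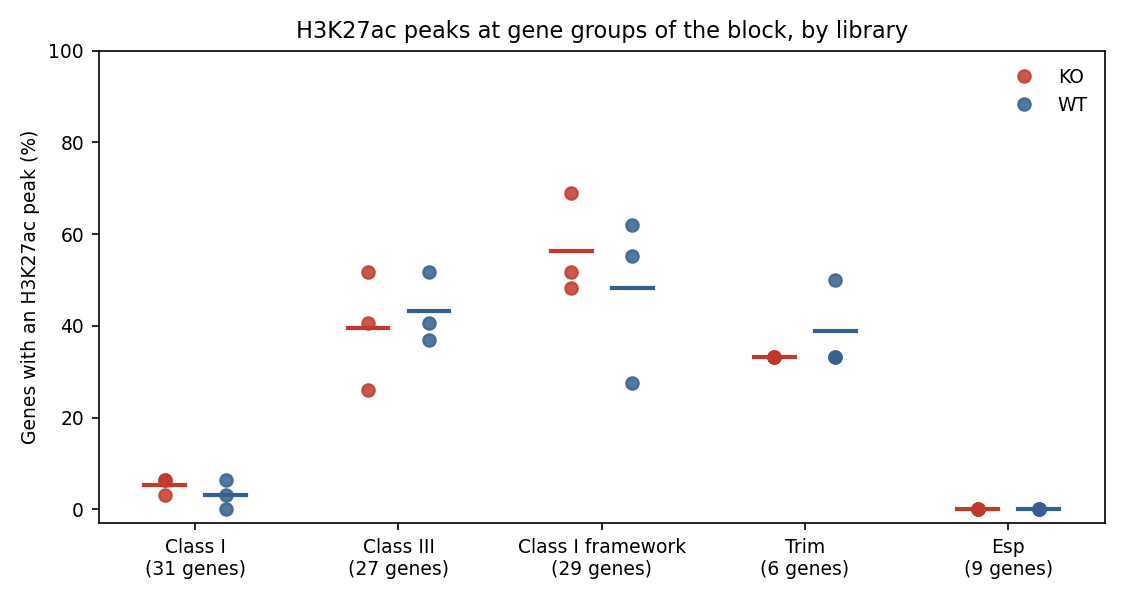
Share of the genes of each list (percent, axis from just under 0 to 100) with an H3K27ac peak in the gene or within 1 kb, per library, KO left and WT right, with a bar at each mean of 3. Framework and class III genes carry peaks in both genotypes, class I genes in at most 2 of 31 per library and Esp genes in none; KO and WT points overlap or coincide in every list.

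Stretches of chromosomes 14 and 7 with many higher H3K9me3 regions were set beside the block. Without rows of Olfr, Vmn and Zfp symbols, 546 of 591 regions (92.4%) between 40 and 45 Mb of chromosome 14 were higher. Between 5 and 35 Mb of chromosome 7, counted the same way, 1936 of 2340 (82.7%) were. With such rows kept in every window, the chromosome 17 block ranked 11th of 556 windows of 5 Mb by its 269 higher regions. Its H3K27ac density was 12.4, 18.6 and 7.00 peaks per Mb in KO and 14.8, 15.6 and 6.00 in WT. The chromosome 14 block had 1.40, 1.80 and 0.60 in KO and 3.00, 1.20 and 1.20 in WT. The chromosome 1 block had 2.73, 5.60 and 1.80 in KO and 3.73, 4.53 and 1.80 in WT. The chromosome 7 block had 11.97, 16.4 and 4.77 in KO and 14.2, 14.4 and 5.83 in WT, near the values of the chromosome 17 block, and the median autosomal window 9.40, 15.8 and 4.00 in KO and 11.4, 13.6 and 4.6 in WT. These differences were not tested.

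The labelled cell type was checked by H3K27ac at marker genes. Of 8 neural progenitor markers, 6, 8 and 4 had a peak in KO and 8, 7 and 3 in WT, with Nes, Pax6 and Fabp7 in all 6 libraries. Of 7 ganglionic eminence markers, 1, 1 and 0 had a peak in KO and 2, 2 and 1 in WT, and Dlx2, Dlx5, Gsx2, Nkx2-1 and Lhx6 had none in any library. Pallial markers had none. Vascular markers (1, 2 and 1 of 3 in KO, 1, 2 and 2 in WT, with Pecam1 in all 6 libraries), microglia and blood markers (0, 2 and 0 of 4 in KO, 2, 1 and 0 in WT) and oligodendrocyte markers (1, 1 and 1 of 2 in KO, 1, 1 and 0 in WT) had a few, and their part in the results was not tested.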

How the data were processed

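Native ChIP-seq libraries of H3K9me3 and H3K27ac came from 3 KO and 3 WT animals per mark. Bowtie2 2.3.4.3, MACS2 and the mm10 build are named in the submitters' processing notes; no source used here names the tool behind the H3K9me3 table. That table lists regions built from 1000 bp windows, and only regions the authors selected on the same libraries. Per the file headers it holds normalised counts for each library joined in 1 cell per genotype, the authors' mean signal, their enrichment as a ratio, log2 fold changes of KO over WT, and p-values and adjusted p-values. The deposited H3K27ac lists give a score, a fold enrichment (ratio) and -log10 p and q values for each peak from the authors' peak caller.

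Apart from the very smallest, which were not compared, the authors' p-values came within 0.00674 (log10) of a G-test on summed values, which uses no spread between animals. limma 3.58.1 under R 4.3.3, with a trended prior variance, was fitted to log2(value + 1) of all listed regions, adjusted over them by Benjamini-Hochberg and checked on simulated data. Whole reads were recovered from the value steps (tolerance 0.1 reads, 100% whole at each position) and given to limma-voom as an alternative. The KO and WT H3K27ac libraries were compared by exact permutation tests, 3 in number. A gene had a peak when one lay in it or within 1 kb, by RefSeq (GRCm38.p6). Promoters were aligned locally. The members, lists and tests were chosen with earlier results of these data known. Members named were up to 6 per list by level, the 6 longest, the 6 highest and 6 lowest by fold change, lower members with a gene, and members under H3K27ac peaks. Animals are separate per the series design.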

Additional observations from a re-analysis of the deposited data

How the results depend on the processing

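A 2-fold minimum left 58 higher and 24 lower regions. Under median-ratio scaling 40 of the 63 lower regions kept their sign, which counts signs and not calls on the rescaled values. Leaving out each listed value in turn kept all 244 and 63 signs, and gave 179 to 223 regions with all KO values above WT and 42 to 55 with all below. Fewer values are easier to separate, and these leave-one-out counts were not taken over the whole table, so nothing is read from them. The limma counts moved to 33 higher and 15 lower with a pseudocount of 5 (2254 and 16857 of the whole table), to 242 and 2 with median-ratio scaling and to 142 and 44 with limma-voom on recovered reads (14.1% and 58.0% of all regions), and leave-one-out gave 0 to 55 higher and 0 to 44 lower. At an unadjusted p of 0.05 or less limma had 105 higher and 30 lower, against 5845 and 24563 of the 50654 regions. The H3K27ac difference per 1000 peaks turned to -0.0691 with -log10 q of at least 5, and ranged from -0.0067 to 0.432 with a library left out (negative without KO replicate 3). The difference in regions touched turned to -0.333 with a longer minimum overlap of 200 bp and ranged from -0.333 to 0.667 with a library left out (negative without KO replicate 2). The difference in genes with a peak turned to -0.333 with gene bodies only and ranged from -2.83 to 5.00 with a library left out (negative without KO replicate 2 or WT replicate 3). The causes were not tested. Without the peaks at Rn45s, chosen after seeing the data, the difference per 1000 peaks was 0.250. With a replicate block on the first number of the H3K27ac titles, whose meaning is not stated, the p-values were 0.5, 1 and 0.667 (smallest possible 0.167), and no call changed. No paired analysis was possible for H3K9me3 because its listed values carry no animal number. Most first numbers of the H3K9me3 titles also occur only in KO or only in WT, so pairing on them would not cover all animals. Depth limits single regions most in the first value of each genotype, with a median of 20 reads.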
